A study of Mus musculus with 8 samples.

Results

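The 10 genes described here encode enzymes that release, build, activate or oxidize fatty acids: Lipf, Lipa, Lipe, Lpl and Lipg, Olah, Fasn, Scd1, Acsbg1 and Hao3 (the name in the array files for Hao2). Their probes were found by gene name among the 41174 noncontrol probes, for 27669 gene names, of an Agilent whole mouse genome array. By name, 9 of the 10 genes had 12 probes, and Lipa had 2 more under its former name Lip1. The genes were chosen by their measured signals in Gen-treated and control mice on these same arrays, with some enzymes of the same pathways beside them. For that reason the differences between the treatments are a description and carry no test.

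The arrays measured RNA from oviducts of 8 adult CD-1 mice. Of these, 4 received corn oil (control) and 4 received the soy phytoestrogen genistein (Gen) in corn oil, at 50 mg/kg/day, by subcutaneous injection on PND1–PND5. All 8 females, aged 6–8 weeks, were superovulated and mated, and oviducts were removed on GD2, 48 hr after hCG, and emptied of embryos. Each array held the RNA of both oviducts of 1 mouse, labeled with Cy3.

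Neutral fat and lipoprotein lipids are broken down to free fatty acids by lipases, which work outside the cell, at the vessel wall, in the lysosome or at the lipid droplet. Fatty acids are made in the cytosol on the fatty acid synthase, and a thioesterase cuts the finished chain from the enzyme. A free fatty acid is joined to coenzyme A before it can be stored, desaturated or oxidized, and peroxisomes oxidize 2-hydroxy acids. In the oviduct, lipids are a component of the epithelium and of the fluid in which early embryos develop.

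Differences in the oviduct ran both ways. Lipf had a 12.4-fold and Acsbg1 a 10.96-fold higher signal in Gen-treated mice than in controls. Hao3 was also higher, by 4.47 on the log2 scale, but 2 of its 4 control signals did not pass background, and the difference was 3.37 with a floor on low signals and 2.78 with normexp background correction. Olah was 7.16-fold lower and Scd1 1.88-fold lower. In each of these 5 genes the 4 Gen arrays lay wholly on one side of the 4 control arrays, 3 genes above and 2 below. For comparison, the groups did not overlap in 6.42% of all 19247 genes toward higher and in 6.15% toward lower signals in Gen-treated mice. The contrast was part of the choice, so nothing is read from that comparison. Fasn was slightly lower, and Lpl, Lipa and Lipe differed by less than 1 SE.

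Signals are processed intensities scaled to a common 75th percentile, means of 4 mice are taken on the log2 scale, and folds are ratios of these means. A probe is called well above background by the scanner software, which is meant where a probe is said to pass background. Controls shared 1 slide and Gen-treated mice shared a different one, and the effects of slide and treatment cannot be told apart. The control arrays had 25391–28949 probes well above background and the Gen arrays 29539–31485. The faintest signal that passed background was 28.5–65.9 on control arrays and 14.5–20.9 on Gen arrays. Counts of arrays that passed therefore rest on unlike cut-offs in the groups. The median difference over all 19247 genes was 0.03 on the log2 scale. The oviduct was recognizable on each array, with sums over 5 secretory epithelium markers of 676607–815527 for controls and 603043–865178 for Gen-treated mice, and sums over 8 ciliated epithelium markers of 180221–231813 and 136350–232857. One control array, replicate 3, stood apart from the other controls in a list of ovarian steroidogenic and granulosa cell markers. Its summed signal was 32553 against 5536–7810, and 18615 of it came from Hsd3b1. Values without this array are given for Lipf, Acsbg1, Hao3, Olah and Scd1.

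The 250 bases before the start of transcription are shown for the 4 genes with the largest differences, so that the letters can be read beside the signals. The sequences are from RefSeq (assembly GRCm38.p6), written 5′ to 3′ on the strand of the gene, and capitals mark the CCAAT box in either orientation (CCAAT or ATTGG). Lipf lies at chr19:33960998-33961247 on the plus strand. The other windows are on the minus strand, Acsbg1 at chr9:54661886-54662135, Hao2 at chr3:98893231-98893480 and Olah at chr2:3366570-3366819.
Lipf: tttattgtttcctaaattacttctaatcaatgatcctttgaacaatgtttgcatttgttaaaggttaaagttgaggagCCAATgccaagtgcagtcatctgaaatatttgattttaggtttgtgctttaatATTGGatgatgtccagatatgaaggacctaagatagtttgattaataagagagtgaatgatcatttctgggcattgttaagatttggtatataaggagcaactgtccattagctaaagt
Acsbg1: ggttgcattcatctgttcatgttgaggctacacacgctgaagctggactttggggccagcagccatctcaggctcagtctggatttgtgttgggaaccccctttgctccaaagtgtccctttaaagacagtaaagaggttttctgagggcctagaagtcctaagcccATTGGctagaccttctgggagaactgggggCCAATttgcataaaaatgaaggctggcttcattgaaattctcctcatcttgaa
Hao2 (Hao3): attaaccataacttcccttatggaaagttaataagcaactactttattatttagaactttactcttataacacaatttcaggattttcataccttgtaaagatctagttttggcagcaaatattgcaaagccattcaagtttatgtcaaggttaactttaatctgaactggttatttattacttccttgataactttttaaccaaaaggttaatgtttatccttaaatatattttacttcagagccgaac
Olah: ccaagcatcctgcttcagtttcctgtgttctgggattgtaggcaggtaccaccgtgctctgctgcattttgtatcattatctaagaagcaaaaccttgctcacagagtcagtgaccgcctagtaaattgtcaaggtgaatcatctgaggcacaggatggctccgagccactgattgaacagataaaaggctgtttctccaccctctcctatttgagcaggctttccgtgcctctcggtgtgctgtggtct

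Of the 10 members, 7 had a promoter in the table used. In these windows, on both strands, 5 motifs were searched: the TATA box (TATAAA), the CCAAT box (CCAAT), a site bound by bicoid-type homeodomain proteins (TAATCC), the nuclear receptor half-site (AGGTCA) and the estrogen response element (GGTCANNNTGACC). The half-site can lie within an estrogen response element. Lipf held 2 CCAAT matches, 172 and 119 bases before its start, and Acsbg1 held 2, 83 and 53 bases before its start. A CCAAT match was present in 33.8% of all 32851 promoter windows. The windows of Hao2 and Olah held none of the 5 motifs. No member window held the bicoid-type site, the half-site or the estrogen response element, which were present in 6.25%, 14% and 0.0639% of all windows. The window of Hao2 had 28.4% G and C and that of Lipf 32.4%, below the median of 52.4% over all windows, whereas Acsbg1 had 48.4% and Olah 49.2%. A match is a run of letters and not a measured binding site.

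Lipf encodes gastric lipase, an acid-stable enzyme that cuts fatty acids from dietary triglycerides in the stomach. Its probe (chr19:33677902-33677961 in mm7, the assembly of the array design) was well above background on all 8 arrays. The control mice gave signals of 3564, 10125, 9180 and 1357, and the Gen-treated mice gave 44040, 151267, 36340 and 43753. The lowest Gen signal was 3.59-fold above the highest control signal, so the groups did not overlap. Gen replicate 2 was far above the other 3 Gen mice, which lay close together. The mean log2 signal was 12.17 ± 1.36 (SD, n = 4) in controls and 15.80 ± 0.95 (SD, n = 4) in Gen-treated mice. The difference was 3.63 on the log2 scale (SE 0.72), and it was 3.16 without Gen replicate 2 and 3.96 without control replicate 3. In whole oviducts, a change in the number of cells of a type and a change in RNA per cell cannot be told apart.

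Lipa and Lipe had overlapping signals in the treatments. Lipa, the lysosomal acid lipase that releases fatty acids and cholesterol from lipoproteins taken up by the cell, lies near Lipf on chromosome 19. Its brighter probe (chr19:34194531-34194590 in mm7) gave 2088, 2037, 2222 and 1899 in controls and 1537, 2222, 1854 and 2216 in Gen-treated mice. The 2 ranges overlapped, and the difference was -0.09 on the log2 scale (SE 0.15). The other Lipa probe passed background on 1 Gen array and 0 control arrays and gave no fold. Lipe, the hormone-sensitive lipase of the lipid droplet, gave 530, 515, 686 and 750 in controls and 734, 635, 690 and 522 in Gen-treated mice at its brighter probe (chr7:22170761-22173014 in mm7). The groups overlapped at both Lipe probes, with differences of 0.06 (SE 0.17) and 0.15 (SE 0.17). An additional probe, listed under a cDNA clone name that RefSeq gives as a synonym of Lipe, fell outside the choice by name and was not used.

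Lpl and Lipg encode the lipases bound to the vessel wall, lipoprotein lipase, which acts mainly on triglycerides, and endothelial lipase, which acts mainly on phospholipids. The brighter Lpl probe (chr8:67361126-67361185 in mm7) gave 9423, 17226, 20140 and 15035 in controls and 11910, 23302, 17598 and 15574 in Gen-treated mice. The difference was 0.16 (SE 0.28) at this probe and -0.04 (SE 0.18) at the other, and the groups overlapped at both. The Lipg probe passed background on all 4 Gen arrays and 0 control arrays. Its signals were 33.2, 28.2, 58.8 and 18.6 in controls and 46.5, 125, 143 and 34.2 in Gen-treated mice. Gen replicates 2 and 3 lay above every control and Gen replicates 1 and 4 lay within the control range. Gen replicate 4 passed background at 34.2 and control replicate 3 did not at 58.8, so the counts of arrays that passed are not a difference in Lipg. Each control was also set to the faintest signal that still passed background on its array, or to the signal of Lipg where that was higher. Against these values the mean of the Gen-treated mice was 1.83-fold higher. That value is no lower bound under other treatments of dim signals. The log2 difference was 0.51 with a floor on low signals and 0.33 with normexp background correction.

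**Figure D1:**
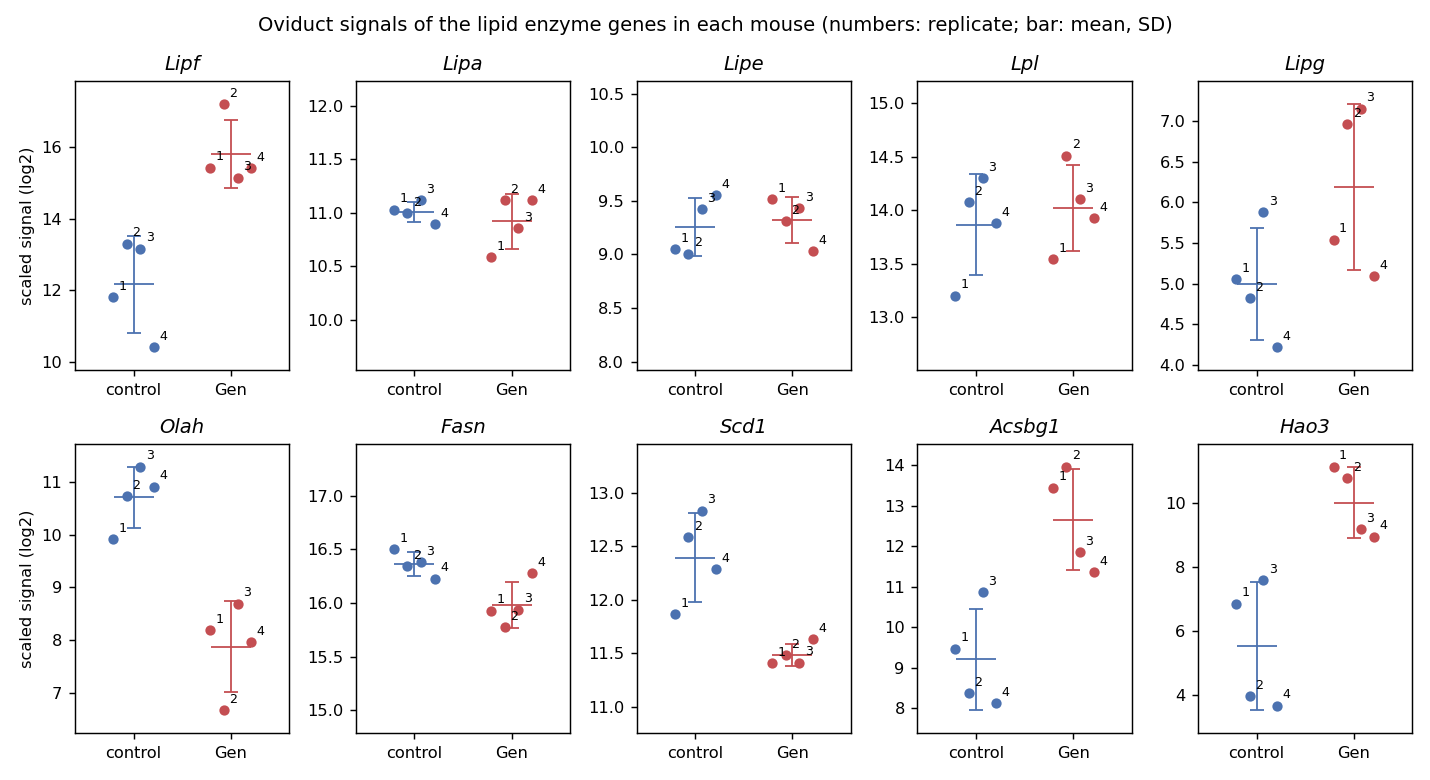
Scaled signal (log2) of the brightest probe of each of the 10 genes in control (blue) and Gen-treated (red) mice, with the replicate number beside each point and the mean and SD of 4 mice as bars. The axes differ between panels. The red points lie wholly above the blue points for Lipf, Acsbg1 and Hao3 and wholly below them for Olah and Scd1, and the groups overlap in the other 5 panels.

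Olah, Fasn and Scd1 act in fatty acid synthesis, and all 3 had lower signals in Gen-treated mice. Olah encodes the thioesterase that releases medium-chain fatty acids from fatty acid synthase, an enzyme best known from the lactating mammary gland. At its 1 probe (chr2:3259569-3259628 in mm7), the controls gave 971, 1702, 2515 and 1932 and the Gen-treated mice 291, 102, 414 and 249. The lowest control signal was 2.34-fold above the highest Gen signal, and Gen replicate 2 was the lowest of all. The mean log2 signal was 10.72 ± 0.58 (SD, n = 4) in controls and 7.88 ± 0.86 (SD, n = 4) in Gen-treated mice. The difference was -2.84 (SE 0.46), or -2.44 without Gen replicate 2 and -2.65 without control replicate 3.

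Fasn encodes the synthase itself, from which the Olah product takes the acyl chain. The brighter of its 2 probes (chr11:120916191-120916250 in mm7) gave 92996, 83226, 85296 and 76777 in controls and 62409, 56189, 62827 and 79643 in Gen-treated mice. Gen replicate 4 lay among the controls, and the other 3 Gen mice lay below all of them. The difference was -0.38 (SE 0.14), a 1.30-fold lower signal. The other probe (chr11:120915397-120915456 in mm7) gave 958–1068 in controls and 604–760 in Gen-treated mice with no overlap, a difference of -0.57 (SE 0.11). Without scaling between arrays the difference at the brighter probe was -0.14, while that choice moved the median of all bright probes to 0.26.

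Scd1 encodes the desaturase that turns saturated acyl-CoA into monounsaturated acyl-CoA. Its probe (chr19:44288770-44288829 in mm7) gave 3737, 6150, 7288 and 4992 in controls and 2723, 2862, 2727 and 3175 in Gen-treated mice. The Gen-treated mice lay within a 1.17-fold range, just below the lowest control, and the gap between the groups was 1.18-fold. The difference was -0.91 (SE 0.21), or -0.76 without control replicate 3. Fasn and Scd1 are abundant in fat cells. The summed signal of 10 adipocyte markers was 56352–96284 in controls and 32930–83166 in Gen-treated mice. Of the 8 markers measured, 6 were lower and 2 higher in Gen-treated mice and none was called, while 54.6% of all genes were higher. Lep, which is in the sum, was not above background on any array. The part of fat tissue in the Fasn and Scd1 differences was not tested.

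**Figure D2:**
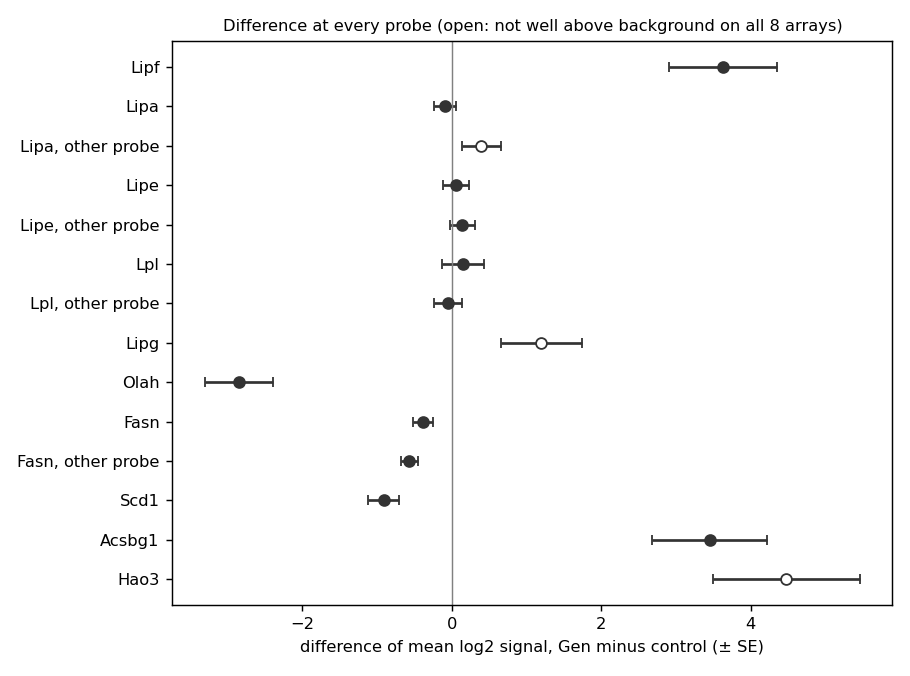
Difference of mean log2 signal, Gen-treated minus control, at each of the 14 probes, with the SE of the fit as bars and open symbols for probes not well above background on all 8 arrays. The probes of Fasn, of Lipe and of Lpl lie close to their partners, Lipf, Acsbg1 and Hao3 lie far to the right and Olah far to the left.

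Acsbg1 and Hao3 act on free acids. Acsbg1 encodes an acyl-CoA synthetase that activates long and very long chain fatty acids and is known from brain, adrenal gland and gonads. Its probe (chr9:54634529-54634588 in mm7) gave 711, 331, 1869 and 277 in controls and 11206, 16067, 3724 and 2620 in Gen-treated mice. The groups did not overlap, but control replicate 3 came within 1.40-fold of Gen replicate 4. The mean log2 signal was 9.21 ± 1.25 (SD, n = 4) in controls and 12.66 ± 1.25 (SD, n = 4) in Gen-treated mice. The difference was 3.45 (SE 0.77), or 4.01 without control replicate 3.

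Hao3, now Hao2, encodes a peroxisomal 2-hydroxy acid oxidase that acts on longer-chain hydroxy acids and is known from kidney and liver. Its probe (chr3:98670176-98670235 in mm7) passed background on all 4 Gen arrays and on 2 of 4 control arrays. Signals were 116, 15.8, 194 and 12.8 in controls and 2235, 1737, 581 and 493 in Gen-treated mice. The lowest Gen signal was 2.54-fold above the highest control, and the controls themselves spanned a 15.1-fold range. The mean signal was 46.2 in controls (log2 SD 1.99, n = 4) and 1027 in Gen-treated mice (log2 SD 1.10, n = 4). The difference was 4.47 on the log2 scale (SE 0.98), and it was 5.16 without control replicate 3. With a floor on low signals it was 3.37 and with normexp background correction 2.78, so the size of this difference depended on how the dim control signals were treated.

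Variation between mice of the same group was wide for the 4 genes with the largest differences. The median SD of log2 signal over all genes was 0.20 in controls and 0.24 in Gen-treated mice. In controls 0.275% of all genes had a larger SD than Hao3, 1.14% a larger SD than Lipf, 1.4% a larger SD than Acsbg1 and 9.7% a larger SD than Olah. In Gen-treated mice the shares were 1.53%, 2.37%, 0.894% and 3.03% for the same genes. Scd1 was among the steadier genes in Gen-treated mice, where 87.8% of all genes had a larger SD, but not in controls, where 18.8% did.

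Markers of ovarian steroidogenic and granulosa cells, a tissue that touches the oviduct, were set beside the members on each array. Of the 12 genes on this list 11 were measured, 10 of these were higher in Gen-treated mice, and 5 were called higher by limma (Cyp11a1, Hsd3b1, Lhcgr, Inha and Mgarp). With dim probes left out none of the 5 was called (adjusted p in limma = 0.0682, 0.0751, 0.0899, 0.0946 and 0.0627). Of all 19247 genes, 54.6% were higher in Gen-treated mice and 3.16% were called higher, or 0.67% with dim probes left out. The summed signal of all 12 genes was 7810, 6248, 32553 and 5536 in controls and 157614, 147023, 38570 and 53068 in Gen-treated mice. Hsd3b1 alone gave 2445, 1283, 18615 and 900 in controls and 88719, 93445, 21861 and 31371 in Gen-treated mice. On control replicate 3 and the Gen arrays this 1 gene was therefore the largest part of the sum. The 4 controls had the same order from lowest to highest in this sum as in Acsbg1, replicates 4, 2, 1 and 3. In Hao3, replicate 3 was also the highest control and replicate 1 the next, while replicates 2 and 4 lay below the faintest signal that passed background on their arrays and have no order. Gen replicates 1 and 2 held the highest sums and the highest signals of both genes. In Lipf, control replicate 2 had the highest control signal, 10125, and the second lowest sum. Control replicate 3, with the highest control sum, came next in Lipf at 9180, and control replicate 4 was the lowest control in both. No defining marker of the list was at background on all 8 arrays, and Cyp19a1 passed it on 3 Gen arrays and 0 control arrays.

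The sums of control replicate 3 and Gen replicate 3 were the closest between the groups, with a ratio of 1.19. The pair was not matched in each marker of the list. Hsd3b1 gave 18615 in the control and 21861 in the Gen-treated mouse, while Mgarp gave 2029 and 4024. Between these 2 arrays, a pair chosen after their values were seen, the Gen signal was 3.96-fold higher for Lipf, 2.99-fold higher for Hao3 and 1.99-fold higher for Acsbg1. For Olah the control signal was 6.07-fold higher, and for Scd1 it was 2.67-fold higher. A single array of each treatment gives no error for these ratios. The part of ovarian tissue in the differences of Hao3, Acsbg1 and Lipf was not tested. Markers of oocytes and preimplantation embryos, all 9 measured ones higher in Gen-treated mice and none called, had sums of 518–6238 for controls and 5938–42011 for Gen-treated mice. The 10 macrophage markers measured were also all higher, 2 of them called (1 with dim probes left out), with sums of 123399–182245 and 174972–239797. The 10 markers of B cells and plasma cells were all higher, 4 of them called (2 with dim probes left out), with sums of 22315–42060 and 59273–85684. Of 5 smooth muscle markers 0 were higher and 0 called, with sums of 999633–1323220 and 823410–1109090. Of 6 stratified squamous epithelium markers measured, 3 were higher and 0 called. Krt6a, Sprr3, Dsg3 and Ivl of that list were not above background on any array. Beside these counts, 54.6% of all genes were higher in Gen-treated mice and 3.16% were called higher (0.67% with dim probes left out). The part of any of these cell types in the member differences was not tested either.

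**Figure D3:**
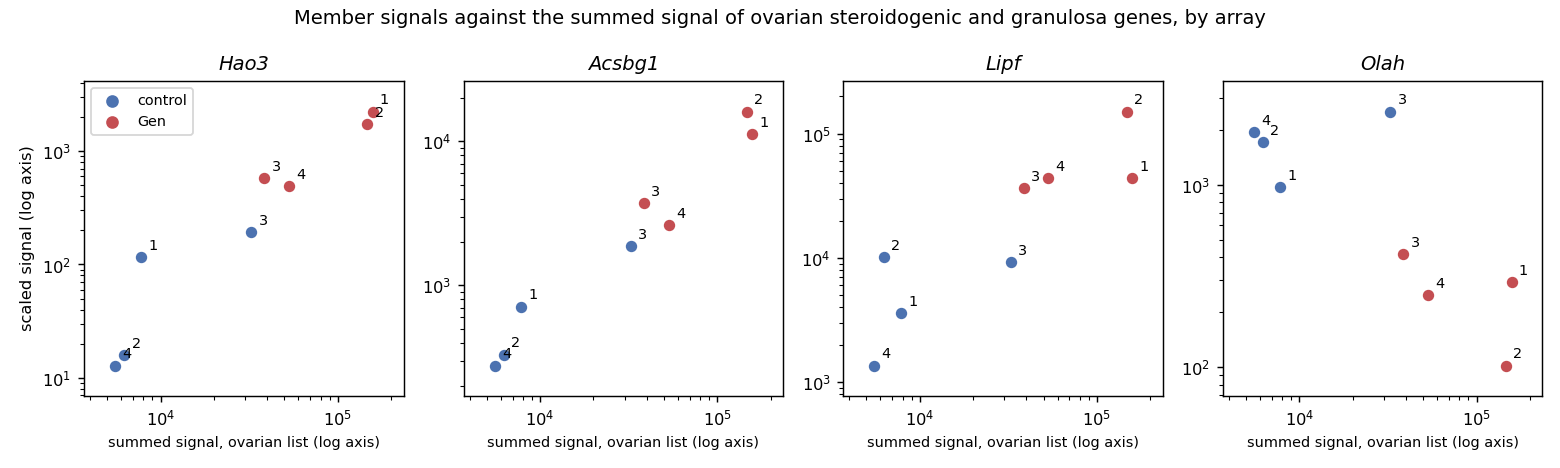
Scaled signal of Hao3, Acsbg1, Lipf and Olah against the summed signal of 12 ovarian steroidogenic and granulosa cell markers, by array. Both axes are logarithmic, with controls in blue, Gen-treated mice in red and the replicate number beside each point. Control replicate 3, with a sum of 32553, lies nearest to the Gen arrays on the horizontal axis and has the highest control signal of Hao3, Acsbg1 and Olah. On this array and the Gen arrays, Hsd3b1 is the largest part of the sum.

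Genes with the nearest pattern over the 8 arrays were found by the mean absolute difference of log2 signal, each gene taken relative to its own control mean, among 14252 genes well above background on all 8 arrays. For Olah the nearest were Serpina1e (0.15), Serpina1b (0.21) and Serpina1d (0.29), members of the alpha-1-antitrypsin family whose sequences are so alike that their probes may share transcripts. Serpina1e gave 2607, 5683, 6684 and 4183 in controls and 604, 301, 1079 and 663 in Gen-treated mice. In both genes Gen replicate 2 was lowest, Gen replicate 3 was the highest of the Gen-treated mice and control replicate 3 was the highest of all. For Hao3 the nearest were Mgarp (0.34), Akr1cl (0.36) and the steroidogenic enzyme Hsd3b1 (0.54), of which Mgarp and Hsd3b1 are also in the ovarian list. For Acsbg1 they were the cystatin Cst12 (0.25), the vesicular monoamine transporter Slc18a2 (0.27) and Ssu2 (0.49). Lipf had no gene as near, with Cst12 at 0.72, Hsd3b1 at 0.83 and Acsbg1 at 0.83.

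**Figure D4:**
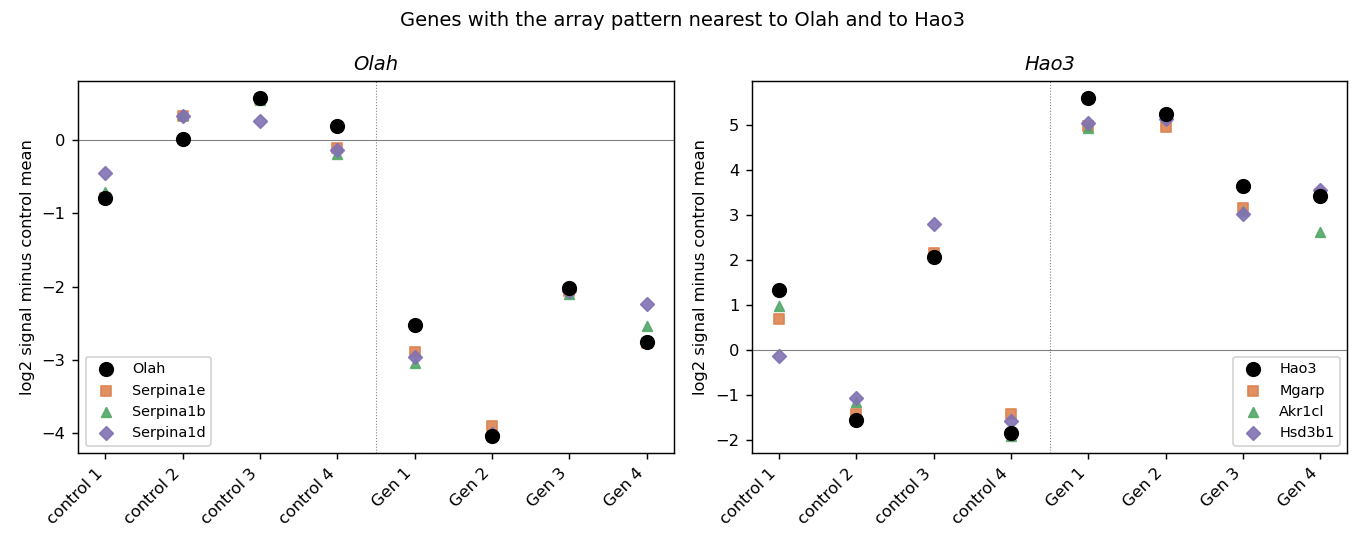
Log2 signal on each array minus the mean of the 4 control arrays, for Olah with Serpina1e, Serpina1b and Serpina1d (left) and for Hao3 with Mgarp, Akr1cl and Hsd3b1 (right). The Serpina1 points lie on or near those of Olah on every array, and the points around Hao3 spread most at control replicate 1.

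The other genes of the pathways were taken from lists. The 7 lists of lipid genes held 235 genes other than the 10 members, of which 230 had a probe and 200 were measured, that is, well above background in every mouse of 1 or both groups. By limma, at an adjusted p under 0.05, 8 of the 200 (4%) were higher in Gen-treated mice and 3 (1.5%) were lower, against 3.16% and 2.18% of all genes. The shares lie near those of all genes. That fit also held probes that passed background on none of the arrays. Some of these had an adjusted p under 0.05, as Lipk and Lipn did (limma adjusted p = 0.0237 and 0.0236), and others did not, as Lipm (limma adjusted p = 0.308). Such probes were not counted but entered the adjustment. When dim probes were left out of the fit, 1 of the 200 was higher and 1 lower, against 0.67% and 0.546% of all genes. The median difference was -0.01 on the log2 scale, beside 0.03 over all genes, with 97 genes toward higher and 103 toward lower signals. No gene was called in either direction by limma (0 and 0) after quantile normalization or without control replicate 1 or Gen replicate 1, 2 or 3. At an unadjusted p under 0.05 the values reported gave 18 and 24 genes and quantile normalization 20 and 27. The share of all genes under that cut was not computed, so nothing is read from these counts.

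Among the genes of fatty acid synthesis, elongation and desaturation, the partners of Olah, Fasn and Scd1, 37 were measured, 1 was called higher and 0 lower. The gene called was Me1 (Mod1 in the files), the malic enzyme that supplies NADPH for fatty acid synthesis. Signals were 1110–2180 in controls and rose to 3166–8850 with Gen, a log2 difference of 1.95 (SE 0.37, adjusted p in limma = 0.0236), and its other probe gave 1.95. Its adjusted p was 0.0479 with dim probes left out. None of the 18 acyl thioesterases measured, the class of Olah, was called (limma). Them5, a mitochondrial thioesterase, gave 792–1639 in controls and 172–700 in Gen-treated mice, a log2 difference of -1.33 (SE 0.45, adjusted p in limma = 0.0894).

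Of the genes for lipases, esterases and their cofactors 29 were measured, 1 was called higher and 2 lower. Mgll, the monoacylglycerol lipase, fell from 25592–29688 to 13769–21160, a log2 difference of -0.72 (SE 0.15, adjusted p in limma = 0.0236), and its other 2 probes gave -2.62 and -0.96. Abhd12, a lysophospholipid lipase, had a log2 difference of -0.75 (SE 0.19, adjusted p in limma = 0.0289), but its other probe gave 0.09. Ces2a, a carboxylesterase named here because it completes the count, had a log2 difference of 0.98 (limma adjusted p = 0.0481) with overlapping groups. Adjusted p was above 0.05 for all 3 with dim probes left out (0.0545, 0.0851 and 0.114). The pancreatic lipase-related genes Pnliprp1 and Pnliprp2 had log2 differences of 2.55 and 1.67 with overlapping groups (limma adjusted p = 0.101 and 0.208). Pnliprp1 passed background on 2 control arrays and Pnliprp2 on 1, so both differences rest partly on dim control signals. Apoc2, the cofactor of lipoprotein lipase, had a log2 difference of 1.34 (limma adjusted p = 0.0584). Lipc, Lipk, Lipm, Lipn, Lipi and Pnlip were not well above background on any array.

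Among the acyl-CoA synthetases and fatty acid transport proteins, the class of Acsbg1, 26 were measured, 3 were called higher and 0 lower. Acsl1, a long-chain acyl-CoA synthetase, rose by 0.48 on the log2 scale (SE 0.12, adjusted p in limma = 0.0273), and Acss1, a mitochondrial acetyl-CoA synthetase, by 0.46 (SE 0.12, limma adjusted p = 0.0347). Acsm3, a medium-chain acyl-CoA synthetase well above background on 1 control array, had a log2 difference of 1.91 (SE 0.39, adjusted p in limma = 0.0236). With dim probes left out none of the 3 kept an adjusted p under 0.05. The fatty acid carrier Fabp5 had a log2 difference of -1.27 (limma adjusted p = 0.0671) and the acyl-CoA binding gene Acbd7 one of -1.76 (limma adjusted p = 0.0721), neither passing the test, although the groups did not overlap in either. Acsbg2, the closest relative of Acsbg1, was not well above background on any array.

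None of the 28 genes of peroxisomal oxidation measured, the pathway of Hao3, was called, and Hao1 was not above background. Of 31 genes of mitochondrial fatty acid oxidation 1 was called, Acadl, the long-chain acyl-CoA dehydrogenase, with a log2 difference of 0.50 (SE 0.14, adjusted p in limma = 0.0491), and an adjusted p of 0.109 with dim probes left out. Of 31 genes of triglyceride synthesis and lipid droplets 2 were called higher and 1 lower. Dgat2, which makes the last step of triglyceride synthesis, fell from 30771–41818 to 17875–23648, a log2 difference of -0.78 (SE 0.15, adjusted p in limma = 0.0236). Its other probes gave -0.88 and -1.05, and the adjusted p was 0.0474 with dim probes left out. Gpat3, a glycerol-3-phosphate acyltransferase, rose from 1010–1458 to 1909–2946, a log2 difference of 0.90 (SE 0.18, adjusted p in limma = 0.0236), which was 0.0542 with dim probes left out. Lpin2, a phosphatidate phosphatase, had a log2 difference of 0.43 (SE 0.12, adjusted p in limma = 0.0423, or 0.0952 with dim probes left out) and probes that disagreed, the others giving 0.03, 0.41 and -0.34. Mogat1 had one of -1.15 (limma adjusted p = 0.137).

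**Figure D5:**
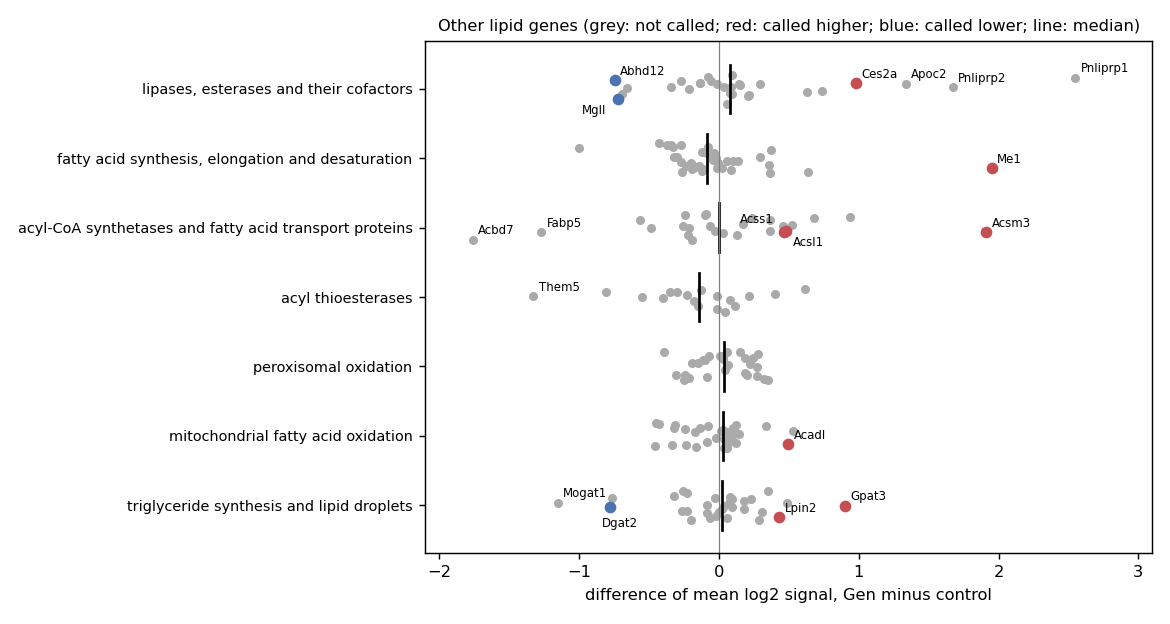
Difference of mean log2 signal, Gen-treated minus control, for the 200 measured genes of 7 lists of lipid genes, 1 point a gene (spread vertically at random within its list), with the list median as a line. Red points (8) were called higher and blue points (3) called lower at a limma adjusted p under 0.05, and the medians lie between -0.14 and 0.08.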

How the data were processed

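Oviduct RNA of 4 control and 4 Gen-treated mice was measured on 1-color arrays, 1 array per mouse. The files deposited by the authors came from Agilent Feature Extraction 9.5, and their processed signal is a linear intensity adjusted for background and trend within the array and not scaled between arrays, and the series table repeats these intensities. The later Rosetta Resolver step was not applied.

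Here 1639 control spots and outlier spots were left out, spots of a probe averaged as log2, and each array scaled to the mean 75th percentile. Treatments were compared with limma 3.58.1 in R 4.3.3 (lmFit, eBayes) over 41173 probes, with Benjamini-Hochberg adjustment and no filter on dim probes. Tables were made with pandas 2.3.3 and plots with matplotlib 3.10.9. A gene was represented by its probe of highest mean signal and counted when well above background on all 4 arrays of a group. Gene names came from RefSeq tables (GRCm38.p6) by accession for 22951 probes, by symbol for 6659 and by synonym for 3109, and 8455 kept the file name. The genes named are all members, list genes called without overlap or with a log2 fold change of at least 1, and the 3 nearest patterns of 4 members. The steps were tested on simulated data. The members and lists were chosen with earlier results of these data known. Groups and replicate numbers came from the labels. The replicate numbers did not pair the samples. The number of arrays limits the precision. Exons and untranslated regions are not given, since no genome of the build was used here. Alternatives tried were no scaling, quantile normalization, normexp (offset 50), a floor, dim probes left out, kept outlier spots, a robust fit with an intensity trend, the replicate block, the mean of all probes, the methods' t-test, an unadjusted p under 0.01 and each array left out in turn.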

Additional observations from a re-analysis of the deposited data

Results flagged for a closer look

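The Lipf signal of Gen replicate 2, 151267, lay far above those of the other 3 Gen-treated mice (36340–44040). On the log2 scale, its gap to the nearest of them was 0.865 of the range of the group, above Dixon's critical value for 4 samples. It was the 1 such value among 54 groups of 4 checked, the control and Gen groups of 27 genes, and chance flags about 1 in 20 groups. Without Gen replicate 2 the Lipf difference was 3.16 on the log2 scale.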

How the results depend on the processing

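Over 16 alternatives for each member, 155 of 160 differences lay within 1 SD of the value reported. Many of these could not lie elsewhere. Leaving out dim probes or adding the replicate block gives the same difference, as does the mean of all probes for a gene with 1 probe. Leaving out 1 array of 4 cannot move a difference by 1 SD, apart from the new scaling. The count is therefore no measure of robustness. The 5 that did not were Hao3 with normexp (2.78), Lipg with normexp (0.33), Fasn without scaling (-0.14), and Lipa without scaling (0.15) and with the mean of all probes (0.15). The sign was the same in all 16 alternatives for 7 members and changed in 2 of 16 for Lpl, 3 for Lipa and 4 for Lipe. With all 8 arrays, the difference was 3.61 to 3.87 for Lipf, -2.89 to -2.48 for Olah, 3.27 to 3.69 for Acsbg1, 2.78 to 4.71 for Hao3 and -0.94 to -0.67 for Scd1. With each array left out in turn it was 3.04 to 4.01, -3.11 to -2.44, 3.02 to 4.01, 3.86 to 5.16 and -1.08 to -0.76 for these 5, and -0.48 to -0.31 for Fasn, -0.06 to 0.32 for Lpl, -0.16 to 0.02 for Lipa, -0.02 to 0.16 for Lipe and 0.88 to 1.56 for Lipg.

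The counts of other lipid genes called by limma, 8 higher and 3 lower, were 1 and 1 with dim probes left out, 3 and 0 without scaling, 2 and 1 with normexp, and 0 and 0 with quantile normalization, a floor or the methods' t-test after adjustment. At an unadjusted p under 0.05 the counts were 18 and 24 in the values reported, 20 and 27 with quantile normalization, 18 and 32 with the floor, 18 and 31 by the methods' t-test and 22 and 3 without scaling, where the median of bright probes was 0.26. The share of all genes under that cut was not computed for any setting, so nothing is read from such counts. Genes called lower numbered 13 with the intensity trend and robust fit, 5 at an unadjusted p under 0.01 and 8 with the mean of all probes, and genes called higher numbered 9 under each of these. With the replicate number as a block, 0 were called higher and 0 lower (18 and 18 at an unadjusted p under 0.05). Same-numbered samples did not deviate together (correlations of -0.08, 0.11, -0.02 and -0.18). With each array left out in turn, 0 to 5 were called higher and 0 to 3 lower. Both counts were 0 without control replicate 1 or without Gen replicate 1, 2 or 3, and 13 to 19 higher and 17 to 24 lower passed an unadjusted p under 0.05 over all 8 such fits. The cause was not tested. Probes near background, as for Hao3 and Lipg in controls, limit how well a difference can be sized.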
